A study of Mus musculus with 12 samples.

Results

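The transcripts of Inha, Inhba, Inhbb, Amh and Fst, which encode the inhibin and activin subunits, anti-Müllerian hormone and follistatin, were examined in the granulosa cells of mouse ovarian follicles. They were chosen by identifier, 1 transcript probe set a gene, and all 5 were among the 41115 transcript probe sets measured. All 5 passed the filter on low values, which kept 25917 probe sets with a value above the 40th percentile of the array on at least 3 arrays. None of the 5 shared its values with another probe set. The probe sets were ENSMUST00000037330_at for Inha, ENSMUST00000042603_at for Inhba, ENSMUST00000038765_at for Inhbb, ENSMUST00000036016_at for Amh and ENSMUST00000022287_at for Fst. The gene names came with the identifiers and were not checked against an annotation, because the files do not pair transcripts with names.

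RNA was measured on 12 Affymetrix arrays, 3 in each of 4 groups. Cumulus cells, which surround the oocyte, and mural granulosa cells, which line the follicle wall, were taken from B6SJLF1 mice 22 days old. Unprimed mice received no hormone. Stimulated mice were injected intraperitoneally with 5 IU of equine chorionic gonadotropin (eCG, or PMSG), which acts like follicle-stimulating hormone, and cells were collected 44 hours later. Each cumulus sample held the cells stripped from 200 fully enclosed cumulus-oocyte complexes, whose oocytes were discarded, and mural samples were clumps of a similar mass. Each replicate came from a pool of 5 mice, so a value describes a pool and not an animal. The identity of the cells was not checked against a set of marker genes here.

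Inhibins and activins are dimeric hormones of the transforming growth factor beta family. An activin joins beta subunits, encoded by Inhba (beta A) and Inhbb (beta B), whereas an inhibin joins a beta subunit to the alpha subunit encoded by Inha. Activins promote and inhibins suppress the release of follicle-stimulating hormone from the pituitary, and both also act within the follicle. Follistatin, encoded by Fst, binds activins and blocks their action. Anti-Müllerian hormone, encoded by Amh, belongs to the same family, is made by granulosa cells of growing follicles and restrains follicle recruitment.

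RefSeq promoter windows of assembly GRCm38.p6 were at hand for 3 of the 5 genes. Those of Inhba and Inhbb are shown because these genes had the rises described below. Each holds 250 bases before and 50 bases after a transcription start, the latter in capitals. The Inhbb window is chr1:119422199-119422498 on the minus strand, and the Inhba window is chr13:16011601-16011900 on the plus strand. The start used for Inhba lies 7595 bases inside the span of the gene, so the window does not cover its most upstream start.
Inhba: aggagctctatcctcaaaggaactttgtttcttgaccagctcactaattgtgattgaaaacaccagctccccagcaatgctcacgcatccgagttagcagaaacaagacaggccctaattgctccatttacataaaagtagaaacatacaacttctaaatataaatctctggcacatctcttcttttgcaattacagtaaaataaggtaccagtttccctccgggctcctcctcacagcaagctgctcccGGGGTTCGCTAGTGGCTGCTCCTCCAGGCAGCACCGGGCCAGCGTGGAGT
Inhbb: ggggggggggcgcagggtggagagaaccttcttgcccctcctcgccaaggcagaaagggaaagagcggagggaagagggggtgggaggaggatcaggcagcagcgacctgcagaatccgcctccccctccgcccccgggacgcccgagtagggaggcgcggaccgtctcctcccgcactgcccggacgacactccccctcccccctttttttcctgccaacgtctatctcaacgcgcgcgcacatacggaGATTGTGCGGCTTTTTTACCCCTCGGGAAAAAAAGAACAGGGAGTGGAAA
Of these bases 47.7% were G or C in Inhba and 64.3% in Inhbb. Several motifs of factors that act in granulosa cells were searched for on both strands, and neither window held any of them. The core of the cAMP response element, with the letters TGACG, was present in 20.8% of 32851 promoter windows of the same length. A variant of that element, TGCGTCA, was present in 2.12% of them. A nuclear receptor site, AGGTCA, was present in 16.3% of the windows. The motif of GATA factors, searched as AGATAA and, in its other form, as TGATAA, was present in 18.6%. The motif of SMAD factors, which carry activin signals, was searched as CAGAC and was present in 49.6%. The start used for Inha lies inside the span of the gene as well, by 532 bases, and its window held 1 match each of the nuclear receptor and SMAD motifs. The absence of a match says only that the letters are not in these windows.

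The arrays had medians of 7.30 to 7.38 on the log2 scale, and their number limits the precision. Every array was placed between the unprimed mean (0%) and the stimulated mean (100%) of its cell type, along the stimulation change of the other cell type over 16804 distinct probe sets without the 5 genes. Unprimed mural arrays were spread widely on this scale, at -5.13%, 46.9% and -41.8% for replicates 1, 2 and 3. Unprimed cumulus replicate 2, at 13.1%, also lay nearer to the stimulated arrays than replicates 1 and 3 (-4.33% and -8.79%). A set of 24 control probe sets for bacterial RNAs (dap, lys, phe and thr), commonly added before amplification, averaged 8.43 to 8.79 on stimulated cumulus arrays and 7.59 to 7.80 on unprimed cumulus arrays, without overlap. On mural arrays these averages were 7.57 to 7.75 in stimulated and 7.23 to 7.84 in unprimed mice. For the Gapdh control, the 3′ probe set minus the 5′ probe set, a sign of RNA integrity and amplification, was 1.37 to 1.62 on stimulated and 1.76 to 1.96 on unprimed cumulus arrays, also without overlap. On mural arrays it was 1.48 to 2.05 and 1.85 to 2.34, and the same difference of the beta-actin control overlapped in cumulus cells (0.87 to 1.17 and 0.75 to 1.01).

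Stimulation with eCG was followed by a rise of both beta subunit transcripts in cumulus cells and by a fall of Amh in cumulus and in mural cells. Inhba rose 4.01-fold and Inhbb 2.83-fold in cumulus cells. Inhba there came near the upper end of the array scale, so its fold is not exact. Amh fell by 0.78 on the log2 scale in cumulus and by 0.55 in mural cells. Inha and Fst passed the test for stimulation in neither cell type. In these bulk samples, more or less RNA per cell and a different mixture of cells cannot be told apart. In cumulus cells 2 of the 5 genes were called higher, where 10.5% of all tested probe sets were, and 1 was called lower, where 9.23% were. In mural cells 0 were called higher by limma (Inhbb alone had an unadjusted p under 0.05 in that direction; background 6.55%) and 1 was called lower (background 8.56%). The median log2 difference of the 5 genes was -0.05 in cumulus and 0.12 in mural cells, against -0.01 and -0.02 over all tested probe sets.

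**Figure D1:**
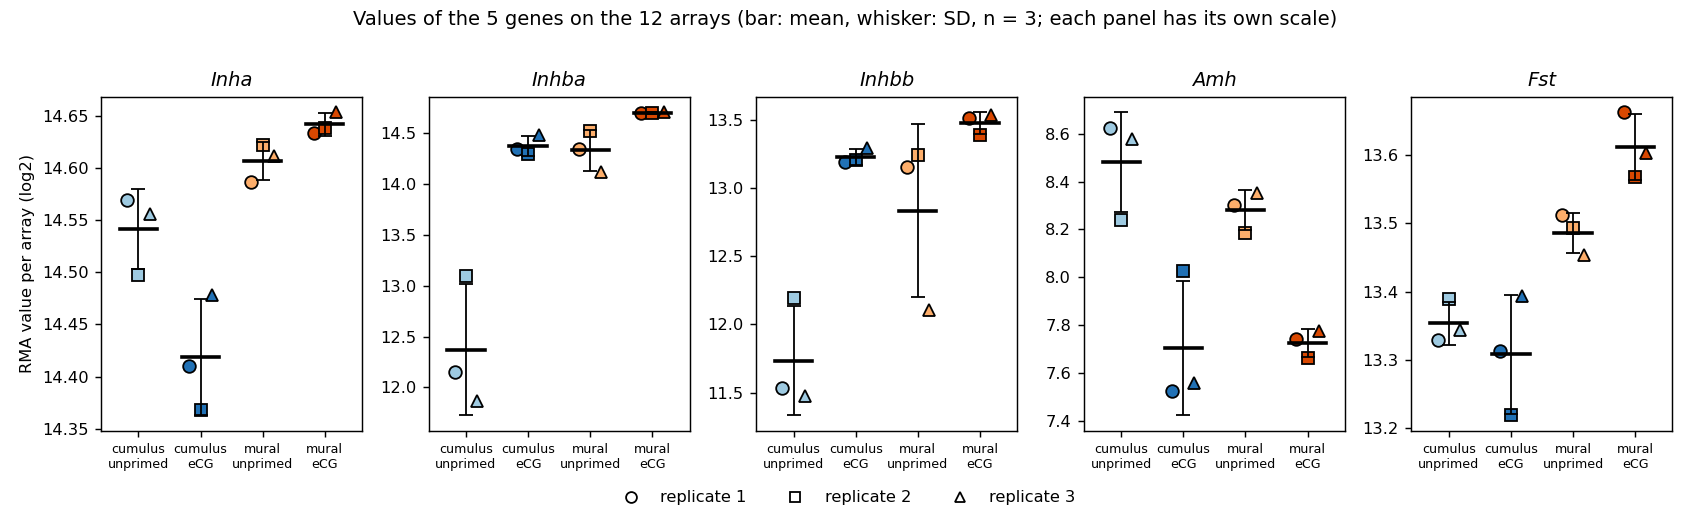
RMA values (log2, vertical axis) of the 5 genes on each of the 12 arrays, by cell type and stimulation, with a marker shape for each replicate, the mean as a bar and the SD as a whisker (n = 3). Inhba in unprimed cumulus cells, at 11.86 to 13.10, lies below all other groups, and each panel has its own scale, so levels are not to be compared between genes.

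The activin beta A subunit gene had the largest range over the 12 arrays of the 5 genes, 2.85 on the log2 scale. Inhba values on unprimed cumulus arrays were 12.15, 13.10 and 11.86 for replicates 1, 2 and 3, and on stimulated cumulus arrays 14.34, 14.30 and 14.48. Unprimed mural arrays gave 14.35, 14.53 and 14.12, and stimulated mural arrays 14.70, 14.70 and 14.71. Unprimed cumulus cells were thus the low group, with no overlap with any other, and the highest of its arrays was replicate 2. In order of level came unprimed cumulus (12.37 ± 0.65, SD, n = 3), unprimed mural (14.33 ± 0.20), stimulated cumulus (14.38 ± 0.10) and stimulated mural cells (14.70 ± 0.01). The middle groups overlapped in their values.

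In cumulus cells the change of Inhba with stimulation was 2.00 ± 0.23 (log2 difference ± SE), with an adjusted p of 0.0002 in limma's fit across all probe sets. Of 25917 tested probe sets, 20 had a greater rise in that comparison. The mural log2 difference was 0.37 ± 0.23 (adjusted p = 0.35), with every stimulated array above every unprimed array. The rise was larger in cumulus cells when the difference itself was tested. The interaction, the cumulus change minus the mural change, was 1.63 ± 0.33 (adjusted p = 0.019, limma), and 43 tested probe sets had a greater value. This was the only interaction called among the 5 genes, where 3.24% of all tested probe sets were called (1.87% in the same direction).

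The cell types differed in Inhba before stimulation. Unprimed cumulus cells had 3.89-fold lower values than unprimed mural cells (log2 difference -1.96 ± 0.23, adjusted p = 0.0002, limma). After stimulation the log2 difference was -0.33 ± 0.23 (adjusted p = 0.28), with all cumulus arrays still below all mural arrays. This difference was called in the fit of the 2 groups alone (adjusted p = 0.032) and without unprimed cumulus replicate 2 (adjusted p = 0.046). With both unprimed arrays of number 2 left out, a setting chosen after seeing the data, it (adjusted p = 0.032) and the mural change of 0.47 (adjusted p = 0.025) were called. The limma fit shares its estimate of the spread between groups, and the SD of Inhba ran from 0.01 in stimulated mural to 0.65 in unprimed cumulus cells.

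In mural cells Inhba lay at the top of the measured scale. On each of the 3 stimulated mural arrays 0 transcript probe sets lay above Inhba. On unprimed mural arrays the highest probe set was 0.10 to 0.49 above it, and on unprimed cumulus arrays 1.52 to 2.78 above it. Stimulated mural values of Inhba (14.70 to 14.71) were above the highest values of the unprimed mural arrays (14.61 to 14.63). The mean of Inhba over the 12 arrays was 13.95. For all distinct probe sets with means of 13 to 14 the median range over the 12 arrays was 0.52. It was 0.36 for means of 14 or more (45 probe sets), 0.73 for means of 12 to 13 and 0.84 for means of 10 to 11. A mean of 14 or more, close to the highest values on the arrays, itself limits the range. On stimulated cumulus arrays the highest probe set was 0.17 to 0.36 above Inhba. The 4.01-fold cumulus rise and the 3.89-fold difference between the unprimed cell types thus each have one group near the top, and their sizes are not exact. How far the top of the scale set the small mural change, the interaction or these folds was not tested.

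**Figure D2:**
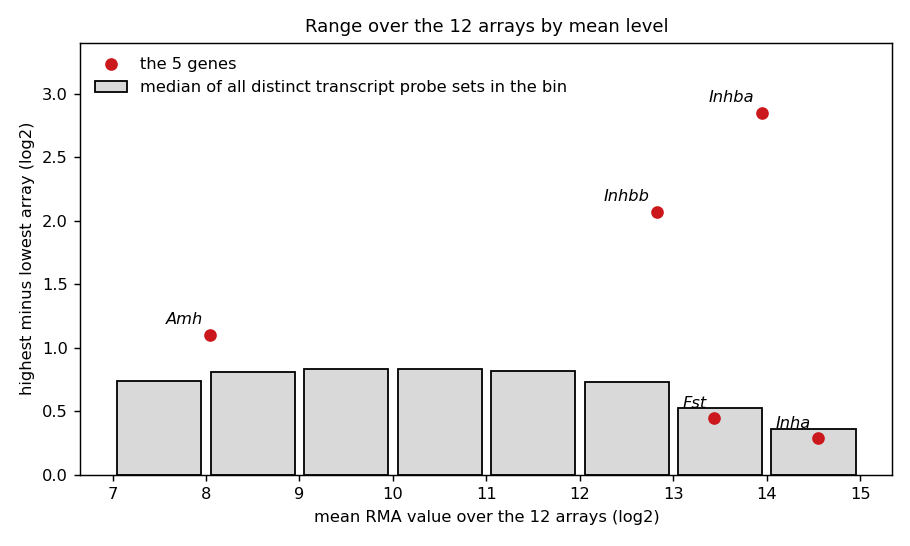
Range over the 12 arrays (highest minus lowest log2 value, vertical axis) against the mean log2 value (horizontal axis). Grey bars give the median of all distinct transcript probe sets in each bin of mean level, which drops to 0.36 at the top, and red points mark the 5 genes, of which Inha (0.29) and Fst (0.44) lie below the bar of their bin and Inhba (2.85) far above it.

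The activin beta B subunit gene followed Inhba in cumulus cells. Inhbb values were 11.53, 12.20 and 11.47 on unprimed cumulus arrays and 13.19, 13.21 and 13.30 on stimulated ones, with a wide gap between the groups. Mural arrays gave 13.16, 13.24 and 12.11 in unprimed and 13.52, 13.39 and 13.54 in stimulated mice. Unprimed mural replicate 3 stood apart from its group and fell within the range of unprimed cumulus arrays. The order of the means was unprimed cumulus (11.73 ± 0.40, SD, n = 3), unprimed mural (12.84 ± 0.63), stimulated cumulus (13.23 ± 0.06) and stimulated mural cells (13.48 ± 0.08). Unprimed cumulus and unprimed mural arrays overlapped, as did unprimed mural and stimulated cumulus arrays.

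The log2 difference of Inhbb with stimulation was 1.50 ± 0.26 in cumulus cells (SE, adjusted p = 0.0023, limma), and 100 tested probe sets had a greater rise. In mural cells it was 0.65 ± 0.26 (adjusted p = 0.12). Without unprimed mural replicate 2 it was 0.85 and called (adjusted p = 0.046), and without unprimed mural replicate 3 it was 0.28 (adjusted p = 0.36). The interaction was 0.85 ± 0.36 (adjusted p = 0.22), with a 95% interval of 0.07 to 1.64. Without unprimed mural replicate 3 it was 1.22 and called (adjusted p = 0.015). The interaction was also called with array weights, and these were the only calls, 2 of 22 alternatives. Whether a difference in the response of Inhbb between the cell types was called therefore depended on the setting. Inhbb lay at least 1.17 below the highest probe set on every array, farther from the top of the scale than Inhba in mural cells.

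Unprimed cumulus cells had 2.15-fold lower Inhbb values than unprimed mural cells (log2 difference -1.10 ± 0.26, adjusted p = 0.011, limma). Same-numbered cumulus and mural arrays differed by -1.63, -1.05 and -0.63. After stimulation the log2 difference was -0.25 ± 0.26 (adjusted p = 0.46), although the groups did not overlap and same-numbered arrays differed by -0.33, -0.19 and -0.24. Its 95% interval of -0.81 to 0.30 uses the spread shared with the wider unprimed groups. In the fit of the 2 groups alone the SE was 0.10 and the adjusted p 0.085.

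**Figure D3:**
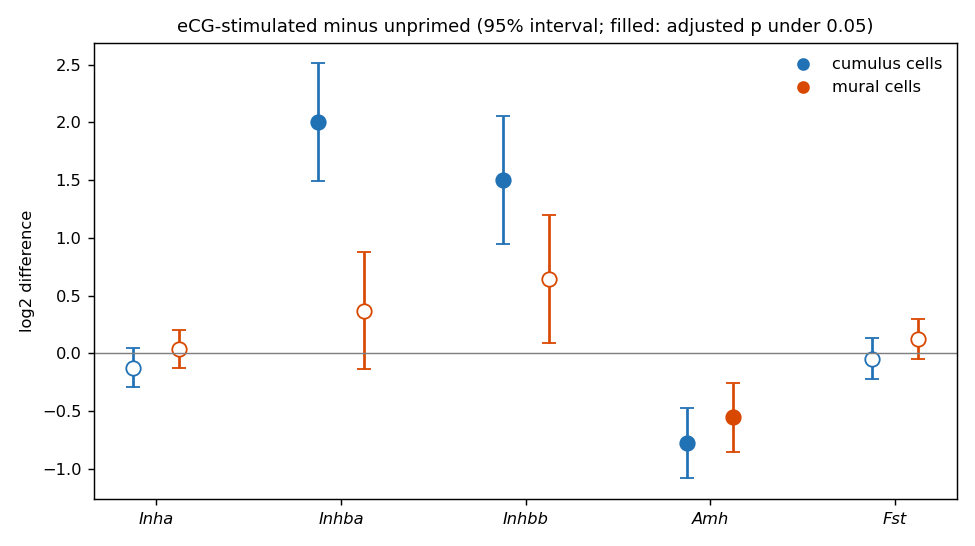
Log2 difference between eCG-stimulated and unprimed mice (vertical axis) for the 5 genes in cumulus (blue) and mural cells (orange), with 95% intervals from the limma fit and filled points where the adjusted p was under 0.05. Inhba (2.00) and Inhbb (1.50) rose in cumulus cells, Amh is below 0 in both cell types, and the intervals of Inha and Fst include 0.

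Amh moved the opposite way. Its values were 8.63, 8.24 and 8.58 on unprimed cumulus arrays and 7.52, 8.03 and 7.56 on stimulated ones. On mural arrays they were 8.30, 8.19 and 8.35 in unprimed and 7.74, 7.66 and 7.77 in stimulated mice. All unprimed arrays lay above all stimulated arrays, across both cell types, and stimulated cumulus replicate 2 was the closest to the unprimed range. The order of the means was unprimed cumulus (8.48 ± 0.21, SD, n = 3), unprimed mural (8.28 ± 0.08), stimulated mural (7.73 ± 0.06) and stimulated cumulus cells (7.70 ± 0.28). Cumulus and mural arrays overlapped at both stages. All values were above the filter level of the arrays (6.66 to 6.73), which is a percentile and not a limit of detection. Between 12459 and 19173 of the 41115 transcript probe sets lay above Amh on an array. Its stimulated values were little above the array medians (7.30 to 7.38).

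The log2 difference of Amh with stimulation was -0.78 ± 0.14 in cumulus cells (SE, adjusted p = 0.0029, limma) and -0.55 ± 0.14 in mural cells (adjusted p = 0.017). In cumulus cells 1.82% of tested probe sets had a lower value, and in mural cells 5.30%. The mural call was lost without stimulated replicate 1 or 2 or unprimed replicate 1 or 3 (adjusted p of 0.051 to 0.057), while the log2 difference stayed between -0.60 and -0.52 when single arrays were left out. The interaction was -0.22 ± 0.20 (adjusted p = 0.57), with a 95% interval of -0.65 to 0.20. Between the cell types the log2 difference was 0.20 ± 0.14 in unprimed mice (adjusted p = 0.32) and -0.02 ± 0.14 in stimulated mice (adjusted p = 0.91). The 95% intervals of these cell type differences were -0.10 to 0.50 and -0.32 to 0.28, so no bias of Amh toward either cell type was detectable.

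The added bacterial RNA controls, which differed between the cumulus groups, moved with these cumulus changes. With their mean as a covariate the log2 differences in cumulus cells were 2.02 ± 0.53 for Inhba (SE, adjusted p = 0.25), 0.91 ± 0.55 for Inhbb (adjusted p = 0.67) and -0.98 ± 0.31 for Amh (adjusted p = 0.33), in limma. No cumulus change of the 5 genes was called in that fit, in which 16 probe sets were higher and 22 lower. The median standard error of that comparison was 0.25, against 0.12 without the covariate. Because the controls separated the stimulated from the unprimed cumulus arrays, their part and that of stimulation cannot be told apart in cumulus cells. The Gapdh 3′ minus 5′ difference separated these groups as well, and its part in the cumulus changes was not tested. The added controls also separated stimulated cumulus (8.43 to 8.79) from stimulated mural arrays (7.57 to 7.75). Their part and that of cell type therefore cannot be told apart in stimulated mice. In mural cells, where the controls overlapped, the Amh difference in the same fit was -0.59 (adjusted p = 0.020). The unprimed cell type differences of Inhba (-1.96, adjusted p = 0.00078) and Inhbb (-1.25, adjusted p = 0.010) were also called in it, whereas the Inhba interaction, at 1.64, was not (adjusted p = 0.25).

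Within the unprimed groups, the same array lay nearest to the stimulated values in these 3 genes. Replicate 2 had the highest Inhba, the highest Inhbb and the lowest Amh value in cumulus cells, and the same was true in mural cells. Unprimed mural replicate 3 had the lowest Inhba, the lowest Inhbb and the highest Amh value of its group. In both cell types replicate 2 was also the unprimed array nearest to the stimulated arrays over all other probe sets. Replicate 2 had the lowest Gapdh 3′ minus 5′ difference of both unprimed groups as well, at 1.76 in cumulus and 1.85 in mural cells. The stimulated means were lower (1.52 and 1.71). Its added controls were the highest of the group in mural (7.84) and the lowest in cumulus cells (7.59). Its beta-actin difference lay farthest from the stimulated mean in both cell types. The part of these values was not tested. The fit without both unprimed arrays of number 2 was chosen after seeing the data. Its cumulus log2 differences were 2.37 for Inhba, 1.73 for Inhbb and -0.90 for Amh, and all were called. Leaving out the arrays nearest to the stimulated values must widen these differences, so this fit is no separate support for them.

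Inha, the alpha subunit gene, lay at the top of the scale in every group. Its values were 14.57, 14.50 and 14.56 on unprimed and 14.41, 14.37 and 14.48 on stimulated cumulus arrays. On mural arrays they were 14.59, 14.62 and 14.61 in unprimed and 14.63, 14.64 and 14.65 in stimulated mice. The groups did not overlap with one another, but the whole range over 12 arrays was 0.29. From low to high came stimulated cumulus (14.42 ± 0.06, SD, n = 3), unprimed cumulus (14.54 ± 0.04), unprimed mural (14.61 ± 0.02) and stimulated mural cells (14.64 ± 0.01). Between 0 and 34 transcript probe sets lay above Inha on an array, so these small differences were measured at the upper end of the scale, where ranges over the arrays were small.

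The log2 difference of Inha with stimulation was -0.12 ± 0.08 in cumulus (SE, adjusted p = 0.28, limma) and 0.03 ± 0.08 in mural cells (adjusted p = 0.84). The 95% intervals, -0.29 to 0.04 and -0.13 to 0.20, both included 0. Cumulus cells had 1.17-fold lower values than mural cells after stimulation (-0.22 ± 0.08, adjusted p = 0.033). This call was close to the threshold and was lost without any one of stimulated cumulus replicates 1 and 2 and stimulated mural replicates 1, 2 and 3 (adjusted p of 0.067 to 0.088), and in the fit of the 2 groups alone (adjusted p = 0.10). It was called in 12 of 23 alternatives. With a variance that follows signal level and resists outliers, the SE was 0.043 and the adjusted p 0.0012. In that fit no stimulation change of Inha or Fst was called (adjusted p of 0.06 to 0.68). Inha had a within-group SD of 0.035. The median over probe sets was 0.048 at means of 14 or more and 0.16 at 10 to 11. The call was also kept with cyclic loess (-0.44, adjusted p = 0.00062) and renewed quantile normalization (-0.30, adjusted p = 0.0063). In unprimed mice the log2 difference was -0.07 ± 0.08 (adjusted p = 0.57), and the interaction was -0.16 ± 0.11 (adjusted p = 0.45).

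Fst, the gene of the activin binder, varied little as well. Its values were 13.33, 13.39 and 13.34 on unprimed and 13.31, 13.22 and 13.39 on stimulated cumulus arrays, which overlapped. On mural arrays they were 13.51, 13.49 and 13.45 in unprimed and 13.66, 13.57 and 13.60 in stimulated mice. Cumulus arrays lay below mural arrays at both stages. The order of the means was stimulated cumulus (13.31 ± 0.09, SD, n = 3), unprimed cumulus (13.35 ± 0.03), unprimed mural (13.49 ± 0.03) and stimulated mural cells (13.61 ± 0.05).

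The log2 difference of Fst with stimulation was -0.05 ± 0.08 in cumulus (SE, adjusted p = 0.73, limma) and 0.12 ± 0.08 in mural cells (adjusted p = 0.37). In stimulated mice cumulus cells had 1.23-fold lower values than mural cells (-0.30 ± 0.08, adjusted p = 0.0097). That difference was called in all fits but the one with the added controls as a covariate, where it was -0.21 (adjusted p = 0.55). The added controls separated the stimulated cumulus from the stimulated mural arrays, so their part and that of cell type cannot be told apart there. In unprimed mice it was -0.13 ± 0.08 (adjusted p = 0.26), and the interaction was -0.17 ± 0.11 (adjusted p = 0.45). The unprimed difference was called with cyclic loess (-0.27, adjusted p = 0.027) and with array weights (-0.16, adjusted p = 0.024).

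Between the cell types, 4 of the 5 genes (Inha, Inhba, Inhbb and Fst) had lower mean values in cumulus than in mural cells at both stages. In unprimed mice 2 were called lower, Inhba and Inhbb, where 10.8% of all tested probe sets were. In stimulated mice 2 were called lower, Inha and Fst, where 18.3% were, and the Inha call was lost in the settings given above. At both stages 0 were called higher by limma (0 also at an unadjusted p under 0.05), where 10.5% and 23.5% of all tested probe sets were. The median log2 difference of the 5 genes was -0.13 and -0.25, against 0.03 and 0.03 over all tested probe sets. Counted by arrays that did not overlap, 3 genes were separated in unprimed mice (background 42.0%) and 4 in stimulated mice (51.1%). For stimulation these counts were 4 in cumulus (40.7%) and 5 in mural cells (30.0%).

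**Figure D4:**
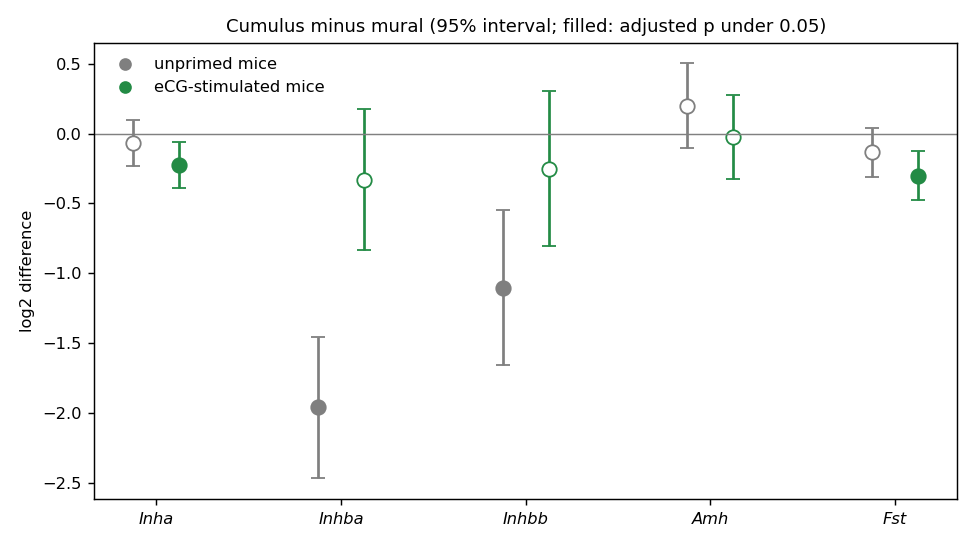
Log2 difference between cumulus and mural cells (vertical axis) for the 5 genes in unprimed (grey) and eCG-stimulated mice (green), with 95% intervals from the limma fit and filled points where the adjusted p was under 0.05. The Inhba difference goes from -1.96 to -0.33 and that of Inhbb from -1.10 to -0.25, while those of Inha and Fst are small at both stages.

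Likeness of pattern was described by Pearson's r over the 12 arrays, against 16808 other tested probe sets with distinct values. Inhba and Inhbb had r = 0.94 with each other, which placed Inhbb at rank 8 in likeness to Inhba. The probe sets most like Inhba were ENSMUST00000135750 and ENSMUST00000155707 (r = 0.96 for both), and those most like Amh were ENSMUST00000043814 and ENSMUST00000055131 (r = 0.96 for both). Amh had r = -0.76 with Inhba and -0.83 with Inhbb. Fst and Inha had r = 0.85, at rank 330 in likeness to Inha, whereas Inha had r = 0.11 with Inhba and 0.03 with Inhbb. All points share the same 12 arrays and the 4 groups, so these values describe the group pattern and carry no test.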

How the data were processed

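Total RNA from 12 samples was amplified from 20 ng in consecutive rounds, per the labels' protocols, a step that can alter relative levels. The values deposited by the authors are log2 probe set summaries, made with RMA in the affy package per the submitters' processing notes. RMA corrects background, makes array distributions alike by quantile normalization and summarises probes by median polish, so a shift common to most transcripts is lost. The sources used here do not state versions, array model, probe set definition or genome build. The table held 41115 transcript probe sets and 64 controls.

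A linear model with a mean for each of the 4 groups was fitted to all 12 arrays and 25917 probe sets with lmFit and eBayes (limma 3.58.1, R 4.3.3) and tested on simulated data. The p-values of each contrast were adjusted by the Benjamini-Hochberg method over all 25917 probe sets, and those under 0.05 were called. They use the spread between pools within a group and take no account of a pool shared between groups. The named genes were all 5 members in every contrast, and, for likeness, the 2 probe sets with the highest r. The members and lists were chosen with earlier results of these data known. RefSeq tables of GRCm38.p6 paired 0 of these transcripts with a symbol, so the pathway list was not tested. Of the cell type markers only Amh, listed for cumulus cells, was tested, as a member. It showed no detectable bias toward either cell type.

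Replicate numbers are shared by the groups, without a statement that they mark a pool. Residuals from the group means were correlated between same-numbered unprimed cumulus and mural arrays (0.11, 0.31 and 0.42), all above the limit of 0.1 for pairing. They did not all pass between stimulated cumulus and mural arrays (0.19, 0.14 and -0.13), between the cumulus groups (0.21, 0.036 and 0.12) or between the mural groups (-0.092, -0.54 and -0.48). With a replicate block within stimulation state, the unprimed cell type differences had adjusted p of 0.00011 for Inhba and 0.0018 for Inhbb in limma. Alternatives changed the filter, scaling, weights, variance model, samples, block and covariate. Figures were drawn with matplotlib 3.10.9.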

Additional observations from a re-analysis of the deposited data

Results flagged for a closer look

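The stimulation effect on Inhba differed between the cell types by the test of the difference itself, the interaction in limma, at 1.63 ± 0.33 on the log2 scale (SE, adjusted p = 0.019). Inhba was higher on all 3 stimulated than on all 3 unprimed arrays in each cell type, by 2.00 in cumulus and 0.37 in mural cells. Inhba was the highest transcript probe set on all stimulated mural arrays, and the part of this position in the difference was not tested. The call was lost without stimulated mural replicate 1 (1.63, adjusted p = 0.051) and without unprimed cumulus replicate 1 (1.52, adjusted p = 0.054).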

How the results depend on the processing

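The 25 log2 differences of the 5 genes had 560 values under alternatives, of which 520 kept direction and side of the threshold, 22 lost a call, 11 gained one and 7 changed sign. The cause was not tested unless given. The unprimed cell type differences of Inhba and Inhbb were called in all alternatives, and the cumulus changes of Inhba, Inhbb and Amh in all but the covariate of added bacterial RNA controls. That covariate ended the calls of Inha (-0.22) and Fst (-0.21) between stimulated cumulus and mural cells, of Inhba (2.02), Inhbb (0.91) and Amh (-0.98) with stimulation in cumulus cells, and of the Inhba interaction (1.64), with larger standard errors, and turned Fst in cumulus cells to 0.043. The Inha difference between stimulated cell types was also no longer called with each array centred on its median (-0.19), with the replicate block (-0.22), with the replicate block within stimulation state (-0.22), in a fit of the 2 groups alone (-0.22) and without both unprimed arrays of number 2 (-0.22). Neither replicate block changed another call. Calls were gained for Fst between unprimed cell types with cyclic loess (-0.27) and array weights (-0.16), for Inhba between stimulated cell types in the fit of the 2 groups (-0.33) and without both unprimed arrays of number 2 (-0.33), for the mural changes of Inhba (0.47) and Inhbb (0.85) in the latter, for the Inhbb interaction with array weights (1.16), and for Inha in cumulus cells with quantile normalization applied again (-0.24). That setting turned Inha in mural cells to -0.0090. Amh between stimulated cell types, near 0, turned to 0.0098 with median centring and 0.012 with renewed quantile normalization. Leaving out 1 array gave -0.18 to 0.067 for that Amh difference, -0.25 to -0.20 for Inha and -0.38 to -0.29 for Inhba between stimulated cell types, 0.28 to 0.85 for Inhbb and -0.60 to -0.52 for Amh with stimulation in mural cells, and 1.38 to 2.00 for the Inhba and 0.65 to 1.22 for the Inhbb interaction.

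Background counts moved more. Array weights, which gave unprimed mural replicate 1 a weight of 8.61, called 6913 higher and 6176 lower between unprimed cell types (2719 and 2793 without weights), 3755 and 4817 with stimulation in mural cells (1697 and 2218) and 1900 and 1291 for the interaction (484 and 355). The covariate called 559 and 976 between stimulated cell types (6090 and 4735), 16 and 22 with stimulation in cumulus cells (2734 and 2393) and 50 and 127 for the interaction. Without both unprimed arrays of number 2 these were 1442 and 1574 between unprimed cell types and 298 and 221 for the interaction. Leaving out 1 array gave 1456 to 2830 higher and 1694 to 2922 lower between unprimed cell types, 1437 to 3339 and 1033 to 2765 with stimulation in cumulus cells, 1080 to 2037 and 1410 to 2236 in mural cells, and 227 to 982 and 193 to 562 for the interaction. The share of calls higher in unprimed cumulus cells was 49.3%, and 61.5% with median centring.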
